A study of Mus musculus with 8 samples.

Results

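The Reg family encodes small secreted C-type lectins of the gut and pancreas, and 5 of its genes (Reg1, Reg3a, Reg3b, Reg3g and Reg4) were examined among the 25239 genes of a bulk RNA-seq count table. They were taken by name from the gene identifiers, and were proposed with the contrast between genotypes already known, so their differences are given as a description and without a p-value. The other Reg genes of the table were Reg2 and Reg3d.

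The study asked what natural killer T (NKT) cells, lymphocytes that recognise lipids on the presenting molecule CD1d, do to the intestinal epithelium. Crypts were taken from the proximal small intestine, and 150000 EpCAM+ epithelial cells negative for CD45, CD31 and Ter119 were sorted per sample. There were 4 CD1d-KO samples, labelled CD1d1/2 KO, and 4 wild-type (WT) samples, labelled C57BL/6Jax. All mice were 7 to 10 weeks old, untreated and kept specific pathogen-free, and both sexes were used. The study states that its mice were not littermates. It adds that this may affect their gut microbiota and may contribute to the epithelial phenotype. Any part of this in the members' values was not tested. The knockout is constitutive, so it removes NKT cells and also CD1d on the epithelium itself. The study also found altered natural killer cells and intraepithelial T cells in the CD1d-KO intestine. It proposes that these may add to or mask the NKT cells' own effects on the epithelium. Per the study's methods the 8 samples came from 4 WT and 4 CD1d-KO mice, and the labels do not give the experiment a sample belonged to.

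Reg3g and Reg3b are bactericidal lectins that Paneth cells and enterocytes secrete, and they help to keep bacteria away from the epithelial surface. Their transcription is known to be induced by microbial signals through MyD88 and by the cytokine IL-22, which acts on epithelial cells through its receptor and STAT3. Reg1 was first described in regenerating pancreatic islets, and Reg4 is known from enteroendocrine cells and from deep crypt secretory cells of the colon.

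Total counts were 29743061 to 31629435 in CD1d-KO samples and 23610266 to 29763051 in WT samples, with WT 4 the lowest. Raw counts of the targeted gene Cd1d1 were 0 to 8 in CD1d-KO and 50 to 94 in WT. Y-linked genes had 6235 and 7293 counts in CD1d-KO 1 and CD1d-KO 2 and at most 1 count in each of the other samples, so the genotypes were not balanced for sex. Of 7 epithelial markers 0 were called as different, with summed normalised counts of 317300 to 339800 in CD1d-KO and 307400 to 341700 in WT. The haemoglobin genes Hba-a1 and Hbb-bs were at 0 in every sample, and Ptprc, which encodes CD45, had 54.51 ± 23.7 normalised counts in CD1d-KO and 96.27 ± 20.3 in WT (SD, n = 4; DESeq2 adjusted p = 0.0879). A gene was called at an adjusted p under 0.05 in a DESeq2 fit of CD1d-KO against WT over all genes.

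The upstream sequences of 3 members are shown because Reg3b and Reg3g were lower in CD1d-KO while Reg3a, from the same gene cluster, was higher. Each is the 250 bases before the gene start, 5′ to 3′ on the gene's own strand, from RefSeq with build GRCm38.p6. Capitals mark matches to TTCNNNGAA, the STAT-type palindrome, or to TATAAA on either strand. The windows are chr6:78370635-78370884 on the plus strand for Reg3b, chr6:78468875-78469124 on the minus strand for Reg3g and chr6:78380459-78380708 on the plus strand for Reg3a.
Reg3b: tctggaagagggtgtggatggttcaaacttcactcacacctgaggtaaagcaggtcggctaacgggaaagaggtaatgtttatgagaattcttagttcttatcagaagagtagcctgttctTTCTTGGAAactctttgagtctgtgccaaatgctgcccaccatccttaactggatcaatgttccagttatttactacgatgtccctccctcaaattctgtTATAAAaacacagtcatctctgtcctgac
Reg3g: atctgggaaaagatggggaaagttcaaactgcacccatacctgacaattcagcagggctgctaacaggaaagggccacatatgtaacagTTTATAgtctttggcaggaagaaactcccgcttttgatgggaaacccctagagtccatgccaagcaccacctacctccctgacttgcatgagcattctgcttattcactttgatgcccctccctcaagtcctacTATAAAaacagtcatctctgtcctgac
Reg3a: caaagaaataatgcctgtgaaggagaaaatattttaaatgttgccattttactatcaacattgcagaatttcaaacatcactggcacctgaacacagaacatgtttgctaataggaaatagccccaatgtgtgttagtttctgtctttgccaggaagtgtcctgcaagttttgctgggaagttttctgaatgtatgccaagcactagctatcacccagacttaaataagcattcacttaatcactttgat

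TTCNNNGAA occurred in the Reg3b window, as TTCTTGGAA beginning 129 bases upstream, and in the Reg3d window, and in none of the windows of Reg3g, Reg3a, Reg1 and Reg4. It occurred in 7.02% of 32851 RefSeq promoter windows of this length. TATAAA lay 29 bases upstream in Reg3b, 27 in Reg3g and 30 in Reg1, was not found in Reg3a or Reg4, and occurred in 12.4% of the windows. The Reg3b and Reg3g windows shared a run of 20 bases ending at the gene start, and every other pair of family windows shared runs of 6 to 12 bases. These matches are letters in a window and do not show a bound site.

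Reg3b and Reg3g, the 2 most abundant members, were lower in CD1d-KO epithelium. Reg3b (mm10 chromosome 6, 78370885 to 78373466, plus strand, 759 exon bases) had normalised counts of 54270, 53360, 55580 and 21980 in WT 1 to 4. In CD1d-KO 1 to 4 they were 12220, 14260, 24740 and 16380. WT 1 to 3 lay close together and far above every CD1d-KO sample, while WT 4 lay below CD1d-KO 3, so the genotypes overlapped. The means were 16900 ± 5500 in CD1d-KO and 46300 ± 16200 in WT (SD, n = 4), a log2 fold change of -1.45 ± 0.34 (SE), or 2.74-fold lower, and 3.22-fold lower without WT 4. In these bulk samples fewer expressing cells and less RNA per cell cannot be told apart.

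Reg3g (chromosome 6, 78466269 to 78468874, minus strand, 773 exon bases) had normalised counts of 46530, 38880, 36910 and 20930 in WT 1 to 4 and of 13060, 13960, 18870 and 14490 in CD1d-KO 1 to 4. Here too WT 4 was the lowest WT sample and CD1d-KO 3 the highest knockout, but the genotypes did not overlap. The log2 fold change was -1.25 ± 0.25 (SE), with means of 15100 ± 2580 and 35810 ± 10800 (SD, n = 4), 2.37-fold lower in CD1d-KO and 2.7-fold without WT 4.

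Reg3a, a lectin encoded between Reg3d and Reg2, went the other way. Its normalised counts (chromosome 6, 78380709 to 78383839, plus strand, 837 exon bases) were 1459, 1873, 1740 and 1309 in WT 1 to 4 and 2006, 2601, 3522 and 3202 in CD1d-KO 1 to 4. Every knockout sample lay above every WT sample, CD1d-KO 1 by a small margin over WT 2. The log2 fold change was 0.83 ± 0.16 (SE), with means of 2833 ± 670 and 1595 ± 257 (SD, n = 4), 1.78-fold higher in CD1d-KO.

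Reg4 (chromosome 3, 98222156 to 98236748, plus strand, 1021 exon bases) lies outside the cluster, on the chromosome of the targeted gene and 11222816 bases from Cd1d1. It had 4368, 3276, 6286 and 6213 normalised counts in CD1d-KO 1 to 4 and 2245, 4079, 3927 and 2603 in WT 1 to 4. CD1d-KO 1, CD1d-KO 3 and CD1d-KO 4 lay above all WT samples, while CD1d-KO 2 lay within the WT range. The log2 fold change of 0.65 ± 0.30 (SE) was not called.

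Reg1 (chromosome 6, 78425983 to 78428668, plus strand, 771 exon bases) had 8162, 7730, 7306 and 10140 normalised counts in CD1d-KO 1 to 4 and 7649, 11000, 9345 and 6262 in WT 1 to 4. All knockout samples lay inside the WT range. The log2 fold change was -0.04 ± 0.15 (SE), with means of 8335 ± 1250 and 8565 ± 2060 (SD, n = 4).

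**Figure D1:**
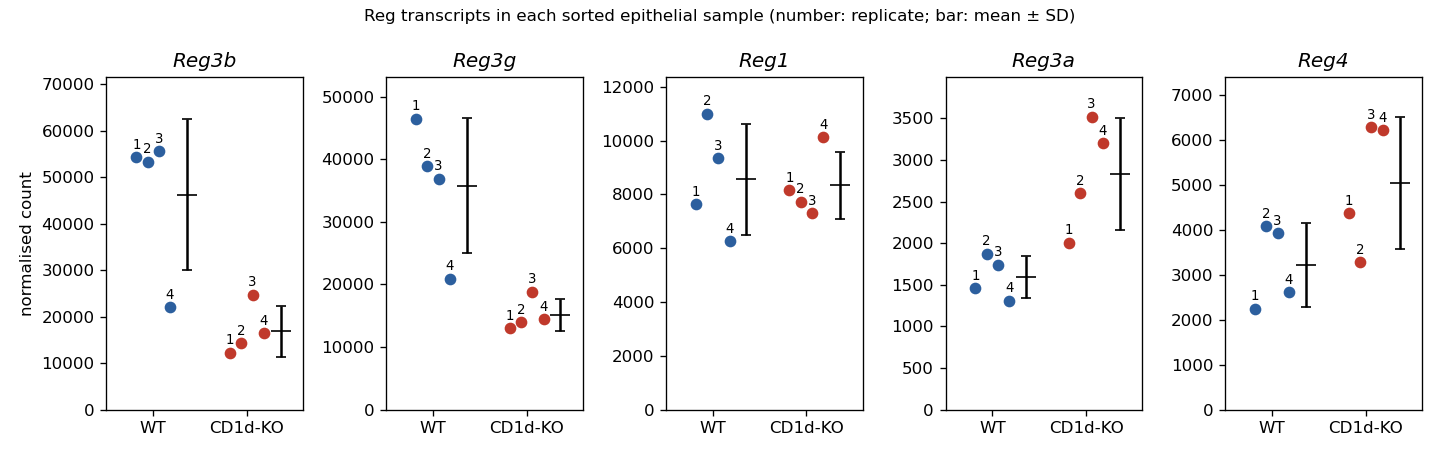
Normalised counts, each gene on its own linear axis from 0, of the 5 Reg genes in 4 WT (blue) and 4 CD1d-KO (red) samples, with the replicate number at each point and the mean ± SD as a black bar. WT 4, at 21980 for Reg3b, sits apart from WT 1 to 3 and below CD1d-KO 3 at 24740.

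Of the 5 members 3 were called, Reg3b and Reg3g lower and Reg3a higher. Among all 15446 genes tested 4.03% were called, 2.38% lower and 1.65% higher in CD1d-KO. The genotypes did not overlap for Reg3g and Reg3a, against 9.61% of all genes tested (5.52% lower and 4.09% higher). Since this contrast was known when the members were chosen, nothing is read from these counts. All 5 members had counts far above the filter on low values.

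When CD1d-KO 1 and CD1d-KO 2, which had Y-linked counts, were left out, the log2 fold changes were -1.17 for Reg3b and -1.10 for Reg3g, neither called, 1.08 for Reg3a, called, and 0.96 for Reg4, not called. Stomach and Brunner's gland markers also moved with genotype, with 6 of 14 tested lower and 1 higher and summed normalised counts of 833.8 to 1746 in CD1d-KO and 2703 to 17800 in WT; 2 to 11 were called when 1 sample was left out. With a stomach score as a covariate 0 members were called, at -1.58 ± 0.73 for Reg3b, -1.54 ± 0.57 for Reg3g and 1.03 ± 0.45 for Reg3a (SE). Without the score the SE values were 0.34, 0.25 and 0.16. The summed stomach markers did not overlap between genotypes, so this fit separates score and genotype poorly. Calls lost with the score, here and below, therefore decide nothing about those genes. CD1d-KO 1 and CD1d-KO 2 had the lowest Reg3b, Reg3g and Reg3a values of the knockouts.

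The balance within the family differed between genotypes. The 5 members together took 0.398%, 0.378%, 0.373% and 0.184% of the counts of WT 1 to 4 and 0.141%, 0.146%, 0.209% and 0.174% of those of CD1d-KO 1 to 4. CD1d-KO 3 thus exceeded WT 4, and the other knockout samples lay below all WT samples. Reg3b made up 34.5% ± 4.36 of the members' counts in CD1d-KO and 47.6% ± 4.38 in WT, and Reg3a 5.852% ± 0.59 and 1.775% ± 0.496 (SD, n = 4). Per exon length, Reg3g exceeded Reg3a 4.9 to 7.05 times in CD1d-KO and 17.3 to 34.5 times in WT, whereas Reg3b and Reg3g stayed near each other, with ratios of 0.953 to 1.34 and 1.07 to 1.53.

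**Figure D2:**
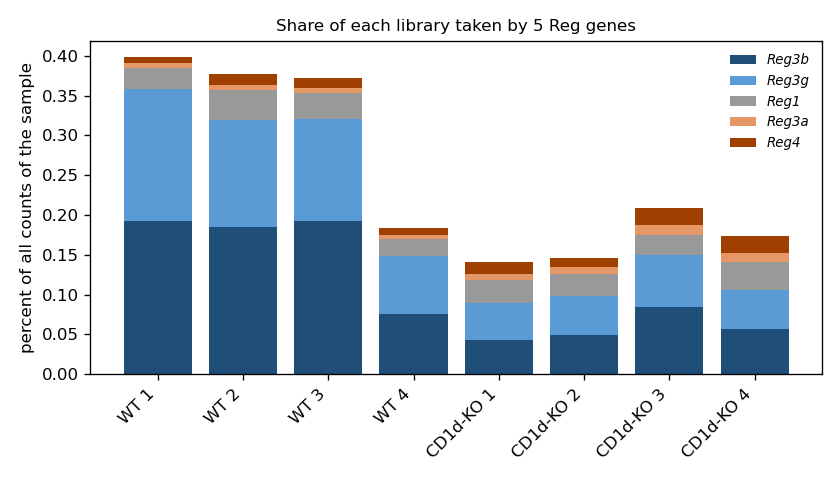
Stacked bars of the percent of all counts of a sample, on an axis from 0, taken by each of the 5 Reg genes in 4 WT and 4 CD1d-KO samples. The bars of WT 1 to 3 reach 0.373% to 0.398%, that of WT 4 0.184%, and those of CD1d-KO 0.141% to 0.209%.

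As levels per length, in counts per kilobase of exon scaled to the library total (RPKM), the order in WT was Reg3b (2128), Reg3g (1618), Reg1 (386.9), Reg4 (109.5) and Reg3a (66.39). In CD1d-KO it was Reg3b (772.3), Reg3g (678.3), Reg1 (375.8), Reg4 (171.1) and Reg3a (117.4). The order was the same in both genotypes. Reg3b and Reg3g overlapped in range in both, as did Reg4 (112.1 to 211.8) and Reg3a (84.76 to 144.7) in CD1d-KO, while Reg1 lay apart from its neighbours in every sample. Reg3b ranked 5 among all genes by WT mean and 57 by CD1d-KO mean.

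The cluster spans 97990 bases of chromosome 6 and held 6 genes of the table, all of them Reg genes. Reg3b and Reg3g lie at its opposite ends, with Reg3d, Reg3a, Reg2 and Reg1 between. Reg3d had 38.34 ± 6.06 normalised counts in CD1d-KO and 38.12 ± 16.5 in WT (SD, n = 4), and its log2 fold change was 0.00 ± 0.33 (SE; adjusted p = 0.999 by DESeq2). Reg2 counts before normalisation were 1, 1, 2 and 3 in CD1d-KO 1 to 4 and 0, 0, 1 and 1 in WT 1 to 4, at or under the floor of 3 counts, and no fold is given. Reference transcripts of Reg3b and Reg3g shared 5 different words of 31 bases, and every other pair in the family shared 0. Words were taken at every position, so shared words can overlap within a single run.

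**Figure D3:**
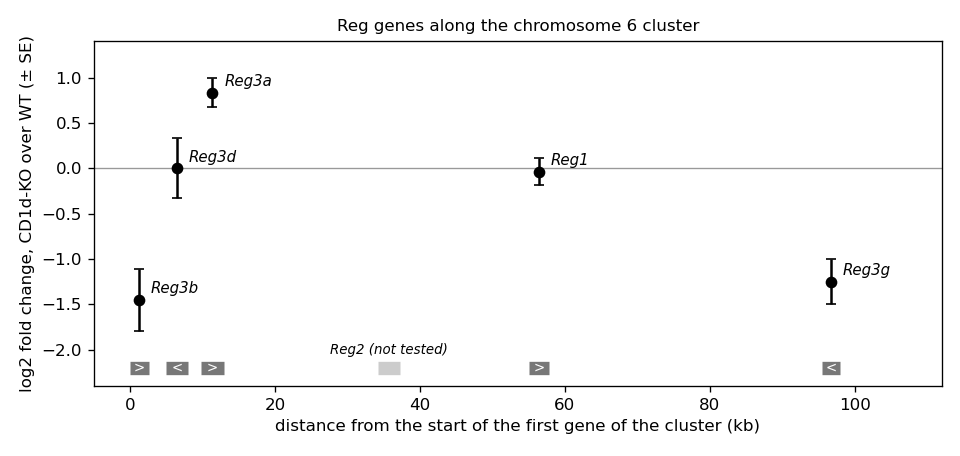
Log2 fold change (CD1d-KO over WT, points with SE bars) of Reg genes against distance in kb along the chromosome 6 cluster, with gene bodies and strand arrows in grey. Reg3b at -1.45 and Reg3g at -1.25 stand at opposite ends, and Reg3a at 0.83 and Reg3d at 0.00 lie near Reg3b.

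Profiles over the 8 samples were compared by the root mean square distance between centred log2(normalised count + 1) values, a description without a test. Genotype means were not removed, so genes with a like difference between genotypes lie near each other. Among 11720 genes Reg3g was the nearest to Reg3b and Reg3b the nearest to Reg3g, at 0.219. Reg3a and Reg4 were 0.271 apart. Reg4 ranked 68 among the genes nearest to Reg3a, and Reg3a ranked 34 among those nearest to Reg4. From Reg3b, Reg3a lay 1.158 away. Outside the family, Reg3b was nearest to Duoxa2 (0.298), the maturation factor of the dual oxidase DUOX2, then to Ccdc88b (0.368) and Card9 (0.378), an adaptor of innate immune receptors. Reg3g was nearest to Card9 (0.237), Ccdc88b (0.249) and B3galt5 (0.25), a galactosyltransferase. Reg3a was nearest to Cyp2c66 (0.139), Rdh7 (0.14) and Aldh1a7 (0.157), Reg4 to Agt (0.117), which encodes angiotensinogen, Trim38 (0.197) and Clps (0.211), the pancreatic lipase cofactor colipase, and Reg1 to Dbndd1 (0.096), Rogdi (0.111) and Espn (0.113).

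Other genes known to respond to IL-22 and STAT3 were lower in CD1d-KO. Of 23 listed genes 17 were tested and 12 fell, with 0 rising, against 2.38% of all genes tested called lower. The median log2 fold change was -1.10, against 0 over all genes tested. This and the other gene lists were chosen with earlier results of these data known, so their counts are given as a description. For the same contrast the study reported lower IFN-γ and IFN-α response gene sets in CD1d-KO. Its prediction of upstream regulators placed IFN-γ first for the genes that fell. Which signal lies behind the fall of the listed genes was not tested. Dmbt1, a mucosal scavenger receptor, changed by -0.56 ± 0.06 (SE; DESeq2 adjusted p = 1.13e-14), Duoxa2 by -1.64 (adjusted p = 1.12e-13), Duox2, which makes hydrogen peroxide at the epithelial surface, by -1.20 (adjusted p = 2.22e-12) and Nos2, the inducible nitric oxide synthase, by -1.89 (adjusted p = 5.2e-11). The genotypes did not overlap for 11 of the 12, against 5.52% of all genes tested with CD1d-KO lower, but the 12 were already called. The exception was Lcn2 (-1.70, adjusted p = 0.0453), which encodes the siderophore-binding lipocalin 2. It lost its call in most alternatives, with 0.255 without WT 2.

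Duoxa2 had 819.8, 835.2, 804.7 and 393.7 normalised counts in WT 1 to 4 and 212.2 to 245.9 in CD1d-KO. Socs3, the STAT3-induced inhibitor of cytokine signalling, had 1011, 1223, 706.8 and 625.9 in WT 1 to 4 and 361.2 to 476.2 in CD1d-KO. WT 4 was the lowest WT sample for 6 of the 12 genes (Saa1, Fut2, Nos2, Duox2, Duoxa2 and Socs3), as it was for Reg3b and Reg3g. It was the highest WT sample for Dmbt1.

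Among 28 genes of the signalling that controls the family, 22 were tested and 4 fell, with 0 rising and a median of -0.15. They were Socs3 (-1.10, DESeq2 adjusted p = 6.44e-07), the bacterial sensor Nod2 (-1.26, adjusted p = 5.56e-05), Stat3 (-0.36, adjusted p = 0.000304) and Il6st (-0.25, adjusted p = 0.00981), which encodes the gp130 receptor chain. Il6st lost its call with edgeR (0.0587), with a replicate block (0.0749) and when WT 1 (0.0821), WT 4 (0.057), CD1d-KO 1 (0.0617) or CD1d-KO 2 (0.114) was left out, and with both samples that had Y-linked counts left out 3 of the 4, Socs3 (0.0902), Stat3 (0.083) and Il6st (0.345), were not called. With the stomach score Stat3 (0.534), Nod2 (0.195) and Il6st (0.652) were not called, nor were 6 of the 12 targets that fell, Dmbt1 (0.0601), Pigr (0.168), Saa1 (0.527), Fut2 (0.949), Muc1 (0.664) and Lcn2 (0.482). Il22ra1, the epithelial IL-22 receptor chain, was at -0.18 ± 0.11 (SE; adjusted p = 0.43). Il22 and Il17a, made by lymphocytes, had 0 counts in every sample, which allows up to 3 counts in each library.

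**Figure D4:**
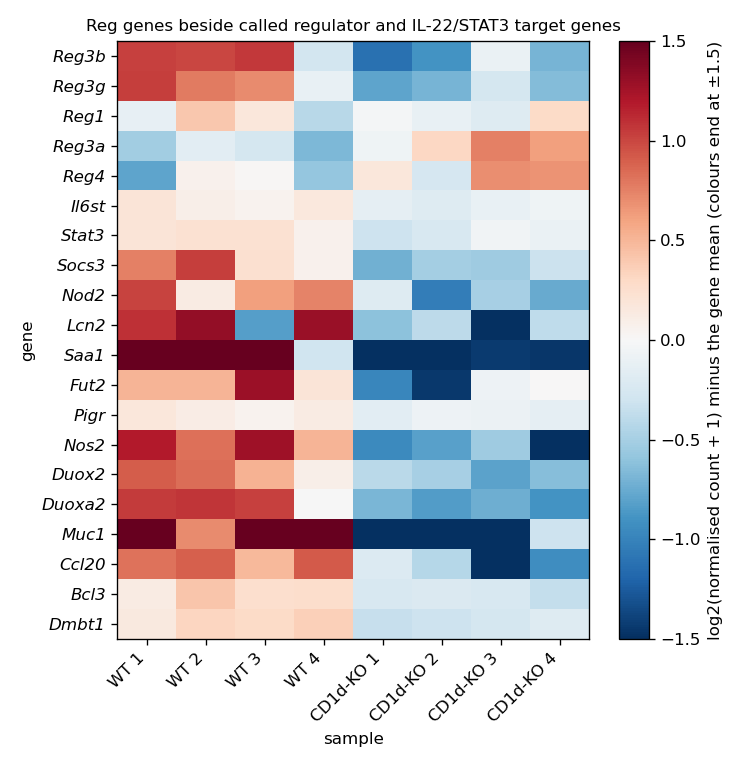
Colours give log2(normalised count + 1) minus the gene's mean over 8 samples, ending at ±1.5, for the 5 Reg genes and every called gene of the regulator and IL-22/STAT3 target lists. Reg3b, Reg3g, Duoxa2 and Saa1 are paler in WT 4 than in WT 1 to 3, and Reg3a and Reg4 are highest in CD1d-KO 3 and CD1d-KO 4.

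Other antimicrobial genes were mixed. Of 20 listed 14 were tested, with 5 lower, 1 higher and a median of -0.22. Beside Dmbt1, the genes that fell were Sprr2a3 (-1.92, DESeq2 adjusted p = 2.1e-13), whose near-identical copies make its count uncertain, Retnlb, which encodes a bactericidal goblet cell protein with 1.913 ± 0.832 normalised counts in CD1d-KO and 25.46 ± 11.8 in WT (SD, n = 4; adjusted p = 7.62e-06), the immunoglobulin transporter Pigr (-0.23, adjusted p = 0.000105) and Pglyrp1 (-0.28, adjusted p = 0.0453). Pglyrp1 was called in 8 of 16 alternatives, and not with edgeR or when any of 6 single samples was left out, at up to 0.227 for WT 2. With the stomach score Sprr2a3 (0.0552), Retnlb (0.332) and Pigr were not called. Lyz1, the Paneth cell lysozyme, was higher by 0.73 (adjusted p = 0.0416) and lost that call with edgeR (0.0858) and when any single sample other than CD1d-KO 2 was left out, at up to 0.162 for CD1d-KO 4.

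Paneth cells are a source of Reg3 lectins. Of 18 markers, all tested, 6 rose, 0 fell and 12 did not pass the test, among them Mmp7 (-0.27) and Mptx1 (-0.21), and the median was 0.60. Their summed normalised counts were 52400 to 101600 in CD1d-KO and 44750 to 57890 in WT, with CD1d-KO 2 inside the WT range. Only 2 markers were called with edgeR and 3 with a replicate block. Those that rose included the lipase gene Pnliprp2 (1.20, DESeq2 adjusted p = 1.07e-09), Clps (0.83, adjusted p = 0.000105) and the alpha-defensins Defa26 (0.81, adjusted p = 0.00592) and Defa21 (0.76, adjusted p = 0.0262), a gene family with near-identical copies. Defa26 and Defa21 were not called with edgeR (0.0908 and 0.0663), and Defa21 also lost its call when any single sample other than CD1d-KO 2 and WT 4 was left out, at up to 0.171 for CD1d-KO 1. Paneth markers called fell to 3 without WT 1 and 3 without WT 3. They were 8 without CD1d-KO 2 and 8 among the samples without Y-linked counts.

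Of 15 goblet cell markers and 16 enteroendocrine markers 0 were called (medians -0.10 and 0.07), nor was any of 10 stem cell markers (median 0.08). Of 16 enterocyte markers 1 was higher (median 0.32), and of 7 tested distal intestine markers 1 was lower (median -0.22). In the pancreas, where Reg1 is also made, acinar cells are defined by digestive enzyme genes, and 10 of 20 such markers, Prss1 and Prss2 among them, had 0 counts in every sample. Of the 5 tested 1 was higher, Pnliprp1 (1.42, DESeq2 adjusted p = 0.00316; 0.137 without the samples with Y-linked counts), and Cela1 was at 0.02 (adjusted p = 0.988).

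The leukocyte genes that were called were each lower in CD1d-KO. Of 9 T and innate lymphoid cell genes tested 2 fell (summed normalised counts of 1264 to 1540 in CD1d-KO and 1358 to 1949 in WT), of 7 B and plasma cell genes 2 (3800 to 4721 and 4076 to 4490) and of 7 myeloid genes 2 (1032 to 1310 and 1368 to 2016). When 1 sample was left out the numbers called ranged from 0 to 3, 1 to 3 and 0 to 2. In the same order the median log2 fold changes were -2.28, -1.26 and -0.44. Over all genes tested the median was 0 and 2.38% were called lower. Ptprc was, like Reg3b, lowest of the WT samples in WT 4 (69.69 normalised counts, against 95.98 to 118.8 in WT 1 to 3). Their part in the members' values was not tested.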

How the data were processed

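The authors deposited raw fragment counts per gene for 8 samples. Per the file headers, featureCounts 1.6.4 counted read pairs over exons by gene, using primary alignments and no strand. The header names an mm10 annotation while the methods name HISAT2 alignment to GRCm39. The listed exons of the 5 members overlap 0 bases of the same genes' exons in GRCm39, so coordinates are given as mm10. Those of Reg1, Reg3g and Reg4 overlap 0 bases of any gene's exons there. Reg1 nonetheless had 5122 to 10564 raw counts per sample. Reads placed on GRCm39 would not give such counts at these positions, so the counts follow mm10. The table had 0 unused sample columns.

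Genotypes were compared on these counts with the study's tool, DESeq2 (version 1.42.0 under R 4.3.3), using genotype alone. Median-of-ratios size factors and independent filtering at a mean of 2.41 left 15446 genes with a Benjamini-Hochberg adjusted p, called under 0.05. Of 19088 genes with counts, 3638 were filtered out. Samples of 1 genotype differed beyond counting noise (chi-square per degree of freedom 9.73 to 37.2), so none was a copy. The floor of 3 counts covers counting error only, while the SE and SD values include variation between samples. RPKM used the deposited exon lengths. The pipeline was tested on simulated data.

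The members and the gene lists were chosen with earlier results of these data known, and the lists were written from general knowledge. Named genes were the members, Reg2 and Reg3d, at most 4 called genes with the smallest p in each list discussed, a few fixed genes, the gate markers, and the 3 nearest profiles of each member among genes with a mean of at least 50. Pglyrp1, Saa1, Fut2, Muc1, Mmp7, Mptx1 and Prss1 were named after their values were seen. Alternatives were edgeR 4.0.16, TMM factors, size factors without the 50 most abundant genes, a filter of 10 counts in 4 samples, no independent filtering, a replicate block, the samples without Y-linked counts, a stomach score covariate and leaving out each sample. The result of 1 gate marker is not reported here.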

Additional observations from a re-analysis of the deposited data

Results flagged for a closer look

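The Reg3b normalised count of 21980 in WT 4 lay far below the other WT samples. Its gap to the nearest of them was 0.934 of the group's range, above Dixon's 95% critical value for 4 samples. Of 14 groups of family values examined it was the only one flagged, and chance flags about 1 in 20. Without WT 4 the log2 fold change of Reg3b was -1.69 ± 0.28 (SE) and that of Reg3g -1.43 ± 0.13 (SE).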

How the results depend on the processing

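Over 16 alternatives Reg3b ranged from -1.70 to -1.17, Reg3g from -1.54 to -1.10, Reg3a from 0.71 to 1.08, Reg4 from 0.51 to 1.14 and Reg1 from -0.16 to 0.18 on the log2 scale. Of the members 3 were called in each alternative except the samples without Y-linked counts (1) and the stomach score covariate (0). Genes called, 622 in the fit reported, were 228 with edgeR, 372 without Y-linked counts and 101 with the stomach score, and 323 to 646 when 1 sample was left out, the fewest without CD1d-KO 2, with 385 without WT 2 and 406 without WT 1. The stomach score is poorly separated from genotype, so calls lost with it decide nothing. With it, called genes were 1 of the regulators, 7 of the IL-22/STAT3 targets, 1 antimicrobial gene, 2 Paneth markers and 0 exocrine pancreas markers. Reg4 was then at 1.14. Among the samples without Y-linked counts they were 1 regulator, 2 enteroendocrine and 0 exocrine pancreas markers. Paneth markers called were 2 with edgeR and 3 to 8 when 1 sample was left out. Called stomach markers ranged from 2 to 11 when 1 sample was left out, T and innate lymphoid genes from 0 to 3, B and plasma cell genes from 1 to 3, myeloid genes from 0 to 2 and enterocyte markers from 0 to 7. The cause of these shifts was not tested. Whether replicate numbers pair the samples was not settled. Correlations of same-numbered samples were 0.285, 0.025, 0.221 and 0.004, and those of differently numbered samples ran from -0.354 to 0.355. The fit with a replicate block called 569 genes, 434 of them shared, with 3 Paneth and 0 exocrine pancreas markers and the same number of members.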
